A study of Saccharomyces cerevisiae and Saccharomyces paradoxus with 16 samples.

Results

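Cryptic unstable transcripts (CUTs) of N17, a strain of Saccharomyces paradoxus, are described here where they have no counterpart in the conserved set, a list of CUTs placed at aligned positions of all 4 yeast strains in the series. A CUT was counted as outside the set when no entry of the N17 list of the conserved set had its chromosome, start, stop and strand. Of the 2661 CUTs annotated in N17, 1806 (67.9%) were outside the set and 855 were conserved. In the annotations of all 4 strains there were 9377 CUTs. The rule used position alone. A conserved entry needed a CUT at the aligned place in the 3 other strains as well, some entries were edited by hand, and CUTs in poorly aligned regions had been left out, so that the 1806 CUTs hold CUTs of N17 alone, CUTs shared with 1 or 2 other strains and CUTs that could not be aligned.

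CUTs are short, capped transcripts of RNA polymerase II that yeast cells begin at many places, often from the nucleosome-free regions of neighbouring genes and on either strand. They are ended early, given a short poly(A) tail by a nuclear polyadenylation complex and degraded by the nuclear exosome. Rrp6 is an exonuclease of the nuclear exosome, so CUTs build up in cells that lack it and are scarce in cells that have it.

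The N17 groups were rrp6Δ cells (HO::lox-Kan-lox, rrp6::NatMX) and WT cells (HO::lox-Kan-lox), with 2 libraries each, labelled as biological replicates. All cells were of mating type α and were grown in YPD at 30 °C to mid-log phase, and poly(A) RNA was sequenced with strand information. Mapped reads numbered 10008480 and 13660614 in the rrp6Δ libraries, against 9201458 and 10655693 in the WT libraries. The annotation gives, for each CUT, 1 rrp6Δ and 1 WT coverage value, the authors' mean over both replicates and over the nucleotides of the CUT. No value of a single library could therefore be shown, the level of RRP6 itself could not be checked, and no test between groups was made. The quartiles given below describe the spread among CUTs and are not errors of replicates.

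No CUT of N17 was listed under chromosome XIII, and the label chrXII held 534 CUTs. In the conserved list each of the 14 other labels ran through 2 sorted blocks, 1 per strand, whereas chrXII ran through 4, with 83 and 61 CUTs in the first and last pair. CUTs of chromosome XIII thus appear to stand under chrXII, and positions there cannot be told apart by chromosome. The 390 CUTs outside the set with this label are given apart, near the end. All values before that concern the 1416 CUTs outside the set and the 711 conserved CUTs of the 14 other labels. Positions are those of the annotation on the N17 assembly, with 1 added to the start so that both ends count from 1. No gene annotation or sequence of that assembly was used here, so that no neighbouring gene is named and no CUT sequence is shown.

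As in the strains Sigma1278b and JAY291 described below, CUTs outside the set were shorter than conserved CUTs. Their median length was 428.5 nt (quartiles 281 and 673 nt), against 551 nt (375.5 and 829.5 nt) in the conserved set. Of the CUTs outside the set, 139 (9.82%) were shorter than 200 nt and 155 (10.9%) were 1000 nt or longer. In the conserved set, 24 CUTs (3.38%) were shorter than 200 nt and 118 (16.6%) reached 1000 nt. The share of N17 CUTs that fell outside the set went down with every step in length, with 85.3% below 200 nt, 78.8% from 200 to 300 nt, 68.4% from 300 to 400 nt, 64.4% from 400 to 600 nt, 58.5% from 600 to 1000 nt and 56.8% at 1000 nt and above. By chromosome, the median of the CUTs outside the set was the shorter one in 12 of 14. Chromosomes I and III were the exceptions, with medians of 544 and 505 nt outside the set, against 448 and 483 nt for the 10 and 15 conserved CUTs there.

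The longest CUT outside the set was CUT9225, on the minus strand of chromosome XVI at positions 510 to 7056. It measured 6547 nt, with a coverage of 304.9 in rrp6Δ and 22.2 in WT. CUT9047 overlapped it on the plus strand (positions 3874 to 7074, 3201 nt), with a coverage of 44.7 in rrp6Δ and 1.79 in WT. Both were 54.8 kb from the nearest conserved CUT. The other 3 of the 5 longest measured 2588 to 2945 nt. One of these, CUT8098 on chromosome V (positions 274984 to 277896, minus strand), was 238 bp from the conserved CUT8567. At the other end of the scale, the 5 shortest CUTs measured 115 to 124 nt. The shortest of all, CUT9178 on chromosome XVI (positions 22652 to 22766, minus strand), had a coverage of 148.5 in rrp6Δ and 6.55 in WT, far above the 2.15 to 7.80 in rrp6Δ of the other 4.

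Coverage is the read depth per nucleotide that the authors scaled to the mapped reads of each library. In rrp6Δ the median coverage was 5.74 (quartiles 3.23 and 11.7) for CUTs outside the set and 6.96 (3.86 and 12.9) for conserved CUTs. In WT the order was the other way round, with a median of 0.790 (0.286 and 2.45) outside the set and 0.510 (0.210 and 1.24) in the conserved set. A WT coverage of 1 or more was found for 44.0% of CUTs outside the set and 30.0% of conserved CUTs, and one of 10 or more for 9.04% and 3.66%. WT coverage was listed at 0 for 82 CUTs outside the set (5.79%) and 41 conserved CUTs (5.77%). Among those listed at 0 and chosen after the values were seen, CUT8916 on chromosome XV (positions 315535 to 315776, minus strand) had the highest rrp6Δ coverage, 26.2. The median was lower outside the set in rrp6Δ in 10 of 14 chromosomes and higher outside the set in WT in 13 of 14.

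**Figure D1:**
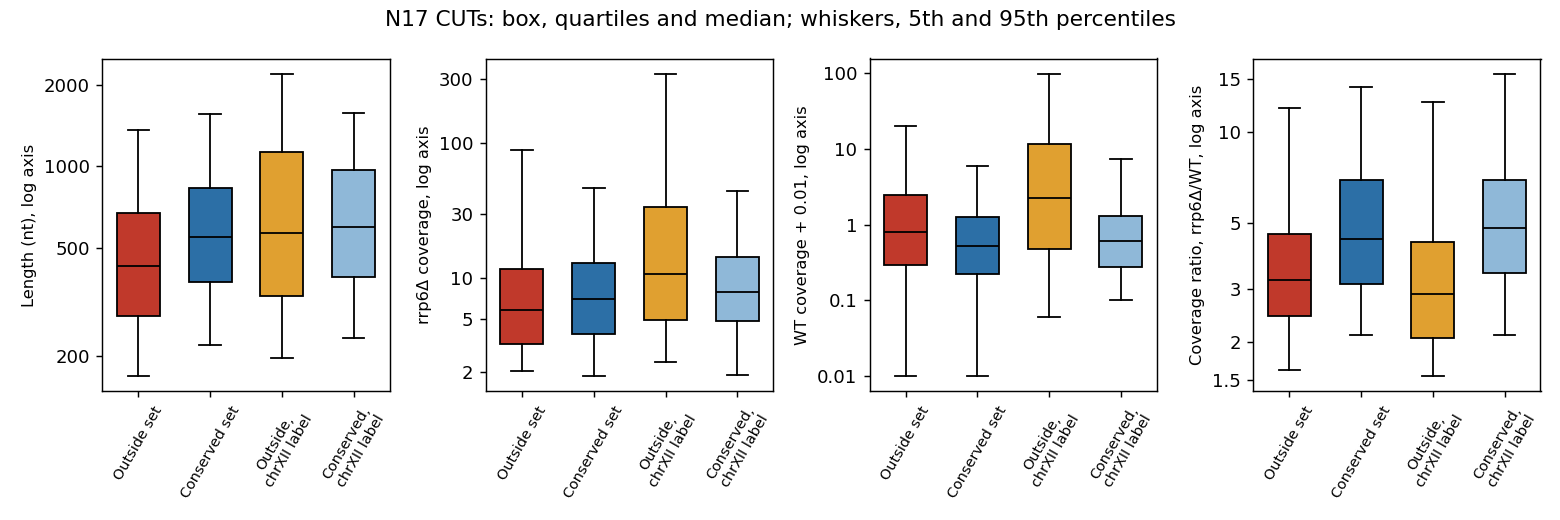
Length in nt, rrp6Δ coverage, WT coverage (with 0.01 added so that values of 0 can be drawn) and the coverage ratio of N17 CUTs, all on log axes. Boxes span the quartiles with the median as a line, and whiskers reach the 5th and 95th percentiles over CUTs. CUTs outside the set (red) had a median length of 428.5 nt and a median WT coverage of 0.790, against 551 nt and 0.510 for conserved CUTs (blue), and CUTs outside the set with the label chrXII (yellow) had the highest WT coverage.

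The coverage ratio was computed as rrp6Δ over WT coverage with 1 added to each. The authors called CUTs from higher coverage in rrp6Δ than in WT, so that high ratios are selected for in both lists, and the comparison described is the one between the lists. The median ratio was 3.23 (quartiles 2.45 and 4.59) outside the set and 4.41 (3.12 and 6.90) in the conserved set, and it was the lower one outside the set in 13 of 14 chromosomes. Of the CUTs outside the set, 1237 (87.4%) reached a ratio of 2, against a background of 90.2% over the 2127 CUTs of both lists. A ratio below 2 was found for 179 CUTs outside the set (12.6%) and 30 conserved CUTs (4.22%). A ratio of 10 or more was found for 92 CUTs outside the set (6.50%) and 81 conserved CUTs (11.4%), with a background of 8.13%.

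The share of CUTs outside the set did not follow the ratio in one direction. It was 85.6% below a ratio of 2, 76.3% from 2 to 3, 66.6% from 3 to 5, 49.4% from 5 to 10 and 42.2% from 10 to 20. At a ratio of 20 and above it was 75.4% (43 of 57 CUTs). Coverage in rrp6Δ gave a flatter course, with 70.8% below 3, 60.2% from 10 to 30 and 78.8% (63 of 80) at 100 and above. By WT coverage the share was lowest, 58.8%, from 0.25 to 0.5 and highest, 83.1% (128 of 154), above 10. The share was thus above its overall 66.6% at both ends of the ratio, at both ends of rrp6Δ coverage and at the upper end of WT coverage.

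**Figure D2:**
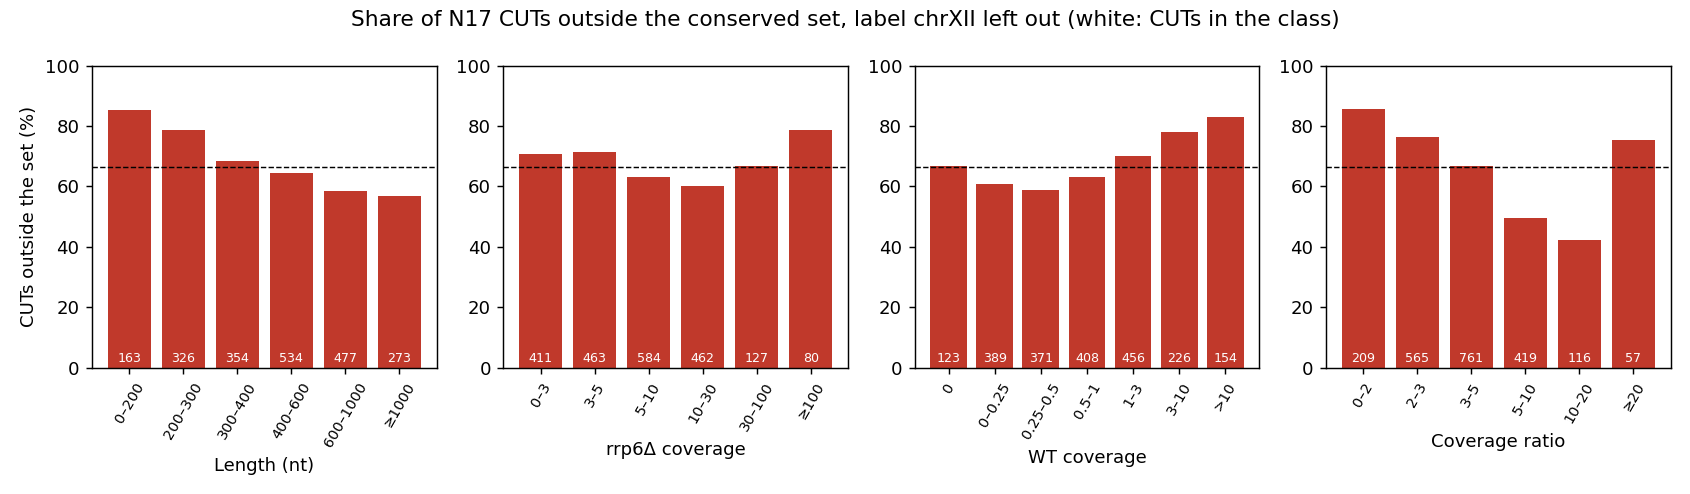
Percent of N17 CUTs outside the conserved set in classes of length, rrp6Δ coverage, WT coverage and coverage ratio (label chrXII left out). The number of CUTs in each class is in white at the foot of each bar, and the dashed line marks the share over all classes, 66.6%. The bars fall with length from 85.3% to 56.8% and fall with the ratio to 42.2% before standing at 75.4% in the last class.

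The differences in length, WT coverage and ratio were also present within classes of rrp6Δ coverage, though that in ratio was small below a coverage of 5. In the class below 5, the median length was 409 nt outside the set and 519.5 nt in the conserved set, and the median WT coverage was 0.326 and 0.217. The median ratio in this class was 2.89 outside the set and 3.08 in the conserved set. In the class from 10 to 30, the lengths were 421.5 nt outside the set and 561.5 nt in the conserved set, the WT coverage was 2.76 and 0.952, and the ratio was 4.22 and 7.98. In the class of 30 and above, 148 CUTs outside the set had a median WT coverage of 18.2, against 6.93 for 59 conserved CUTs. This class has no upper limit, and 63 of its CUTs outside the set and 17 of its conserved CUTs were at 100 or more. The WT values there are therefore not matched for rrp6Δ coverage. When CUTs were sorted by length and by rrp6Δ coverage together into 9 classes, the share outside the set was lowest, 54.4%, for CUTs of 600 nt and more with a coverage of 5 to 10. It was highest, 82.9%, for CUTs below 300 nt with a coverage of 10 and above. CUTs below 300 nt with a coverage below 5 were the only class with a higher median ratio outside the set. It was 2.92 there, against 2.71 in the conserved set.

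A small group of CUTs outside the set had very high rrp6Δ coverage together with a high ratio. A coverage of 500 or more was reached by 27 CUTs outside the set (1.91%) and 1 conserved CUT (0.141%). The 27 CUTs lay on 12 chromosomes, at most 6 on any one, with 17 on the plus strand. Their median coverage was 1227 in rrp6Δ and 21.9 in WT, their median ratio was 58.4 (quartiles 42.8 and 74.1), and 25 of them reached a ratio of 10. Their median length was 570 nt (quartiles 506 and 802 nt), against 428.5 nt for all CUTs outside the set. They held 59.2% of the rrp6Δ coverage summed over the nucleotides of all 1416 CUTs outside the set, and the 63 CUTs with a coverage of 100 or more held 81.2%. Sums and means of coverage over CUTs outside the set are therefore set by few CUTs, and medians were used throughout.

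The highest coverage was that of CUT9282 on the plus strand of chromosome V (positions 41181 to 41735, 555 nt), with 5599 in rrp6Δ and 82.3 in WT. On the same chromosome, CUT9279 (positions 31569 to 32282, minus strand, 714 nt) had a coverage of 2805 in rrp6Δ and 32.1 in WT. These CUTs lay 2002 and 1048 bp from the nearest conserved CUTs, CUT7006 and CUT7661, whose rrp6Δ coverages were 2.61 and 4.996. CUT9281 on the plus strand of chromosome VII (positions 590851 to 591408, 558 nt) had a coverage of 4327 in rrp6Δ and 49.6 in WT, and overlapped the conserved CUT9094 on the opposite strand, whose coverage was 59.5 in rrp6Δ and 0.941 in WT. CUT9278 on chromosome II and CUT9277 on chromosome XV followed, with 2803 and 2473 in rrp6Δ against 39.9 and 31.5 in WT.

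The highest ratio was that of CUT9267 on the minus strand of chromosome XV (positions 121322 to 121675, 354 nt). Its coverage was 1227 in rrp6Δ and 9.69 in WT, a ratio of 114.9, and it overlapped the conserved CUT8695 on the opposite strand, with 15.4 in rrp6Δ and 1.58 in WT. CUT9251 on chromosome XIV (positions 693970 to 694804, plus strand) had a ratio of 109.4 and CUT9271 on chromosome XV (positions 397390 to 397959, minus strand) one of 100.004. The rrp6Δ coverage was 600.7 or more in all 5 CUTs of highest ratio.

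The same counts were taken in the annotations of Sigma1278b and JAY291, whereas CUTs of S288c were not divided by the conserved set here. With a coverage of 500 or more in rrp6Δ there were 4 CUTs outside the set (0.305%) in Sigma1278b, a laboratory strain of Saccharomyces cerevisiae. In JAY291, a strain of the same species from bioethanol fermentation, there were 7 (0.495%). The median ratios of these CUTs were 3.08 in Sigma1278b and 3.33 in JAY291. A ratio of 20 or more was reached by 57 CUTs in N17, 43 of them outside the set. In Sigma1278b 3 of 11 such CUTs were outside the set, and in JAY291 13 of 25. The highest ratio outside the set was 175.2 in JAY291, above the 114.9 of N17. The strains were normalized separately, so that these are values side by side, and the differences between strains were not tested. In both strains CUTs outside the set were also shorter than conserved CUTs. The median lengths were 374 against 574 nt in Sigma1278b and 334 against 514 nt in JAY291. The median ratios were lower as well, 3.26 against 4.67 in Sigma1278b and 3.96 against 5.13 in JAY291. Median WT coverage outside the set was higher in JAY291 (0.750 against 0.656) but lower in Sigma1278b (0.620 against 0.668). In Sigma1278b these values leave out the label chrXII, as in N17. Those of JAY291, which is annotated by contig, cover all its contigs.

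CUTs with high coverage in both genotypes formed another group. CUT9272 on the plus strand of chromosome XIV (positions 76748 to 77429, 682 nt) had the highest WT coverage, with 1635 in rrp6Δ and 627.9 in WT, a ratio of 2.60. CUT9218 on chromosome XV (positions 327365 to 327869, minus strand) had 261.0 in rrp6Δ and 139.6 in WT, and CUT9197 on chromosome VIII (positions 402480 to 402748, plus strand) had 197.4 in rrp6Δ and 99.0 in WT. Their ratios, 1.86 and 1.98, were below 2. CUT9273 on chromosome XI (positions 42143 to 42721, plus strand) differed from these, with 1846 in rrp6Δ and 125.5 in WT, a ratio of 14.6, and lay 75 bp from the conserved CUT7867.

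At the low end, the averaged coverage of some CUTs was nearly equal in both genotypes. A ratio below 1.5 was found for 46 CUTs outside the set (3.25%) and 9 conserved CUTs (1.27%). CUT7208 on the minus strand of chromosome VI (positions 60823 to 61323, 501 nt) was the one CUT outside the set, on these 14 labels, whose rrp6Δ coverage was below its WT coverage, with 3.21 in rrp6Δ and 4.74 in WT. CUT9065 on chromosome II (positions 35330 to 36006, plus strand) had 48.6 in rrp6Δ and 48.4 in WT, opposite the conserved CUT8178 with 8.12 in rrp6Δ and 0.400 in WT. CUT7733 on chromosome XI (positions 569808 to 570037, plus strand) had 5.33 in rrp6Δ and 5.12 in WT and lay within the conserved CUT9100 of the other strand, with 65.3 in rrp6Δ and 2.10 in WT. The CUT calls were made on the fold change, rrp6Δ over WT, at each nucleotide along the genome and not on the ratio of these averages. Among CUTs outside the set, a ratio below 2 was found for 14 of 1310 in Sigma1278b (1.07%) and 3 of 1413 in JAY291. In N17 it was found for 179 of 1416. Conserved CUTs differed between the strains in the same direction, with 30 of 711 in N17, 2 of 711 in Sigma1278b and 2 of 855 in JAY291. The counts of JAY291 again cover all contigs.

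Over the annotated span, the density of CUTs outside the set varied less between chromosomes than that of conserved CUTs. Density was taken over the span from the first to the last CUT of a chromosome. Its median over 14 chromosomes was 147.0 CUTs per Mb outside the set, from 126.5 on chromosome VIII to 173.6 on chromosome VI. In the conserved set it was 73.2 per Mb, from 35.4 on chromosome VI to 94.4 on chromosome VIII. Over this span the same chromosomes thus stood at opposite ends, but chromosome I was close to VIII, at 126.7 per Mb outside the set. The conserved value of chromosome VI rests on 10 CUTs. With chromosome lengths of the Saccharomyces cerevisiae reference genome in place of the span, chromosome I was lowest outside the set. It was at 95.6 per Mb, VIII at 119.1 and VI, the highest, at 181.4. The density of conserved CUTs was not computed on these lengths. The share of CUTs outside the set ran from 57.3% (67 of 117) on chromosome VIII to 83.1% (49 of 59) on chromosome VI. The small chromosomes IX and III followed VI, with 75.3% (70 of 93) and 45 of 60. On the label chrXII the density was 387.2 per Mb outside the set and 143.0 per Mb in the conserved set. This label appears to hold CUTs of chromosomes XII and XIII over a single span. Its densities are therefore not comparable with those of the other labels. Strands were about even, with 676 CUTs outside the set on the plus and 740 on the minus strand.

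**Figure D3:**
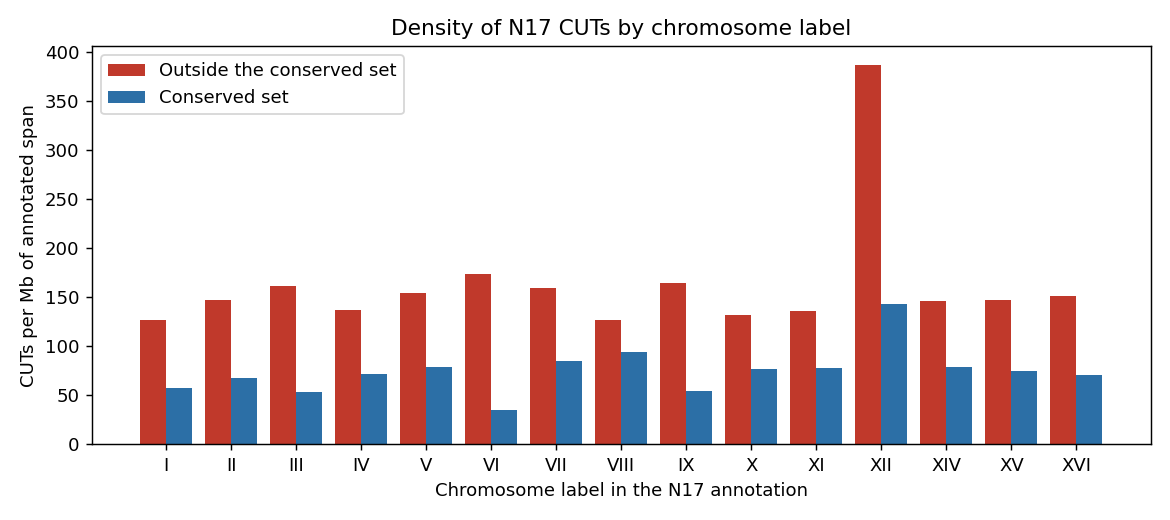
CUTs per Mb of annotated span (first to last CUT) for each chromosome label of the N17 annotation, outside the conserved set (red) and in it (blue). Outside the set, 14 labels lie between 126.5 and 173.6 per Mb and the label chrXII reaches 387.2 per Mb. The value of chrXII is not comparable with the others, since this label appears to hold CUTs of chromosomes XII and XIII over a single span.

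Towards the chromosome ends nearly all CUTs were outside the set. Within 10 kb of an end of the annotated span, 89 of 96 CUTs (92.7%) were outside the set, with densities of 317.9 per Mb outside the set and 25 per Mb in the conserved set. The share was 83.9% from 10 to 20 kb, 75.8% from 20 to 50 kb and 61.1% from 50 to 100 kb, and it was 64.4% farther in. The outermost CUT sets the end of a span, so that 28 of the 96 CUTs lie there by construction, 26 of them outside the set. Without them the density within 10 kb was 225 per Mb outside the set and 17.9 per Mb in the conserved set. All 14 chromosomes had CUTs outside the set within 10 kb of an end, between 3 and 10 each. The median length of these 89 CUTs was 426 nt, their median coverage was 6.27 in rrp6Δ and 0.893 in WT, and their median ratio was 3.18, all close to the values of the CUTs outside the set as a whole. In Sigma1278b the share outside the set was 91.0% (81 of 89) within 10 kb and 71.4% (40 of 56) from 10 to 20 kb of an end. CUTs in poorly aligned regions could not enter the conserved set, and their number at the ends was not measured.

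**Figure D4:**
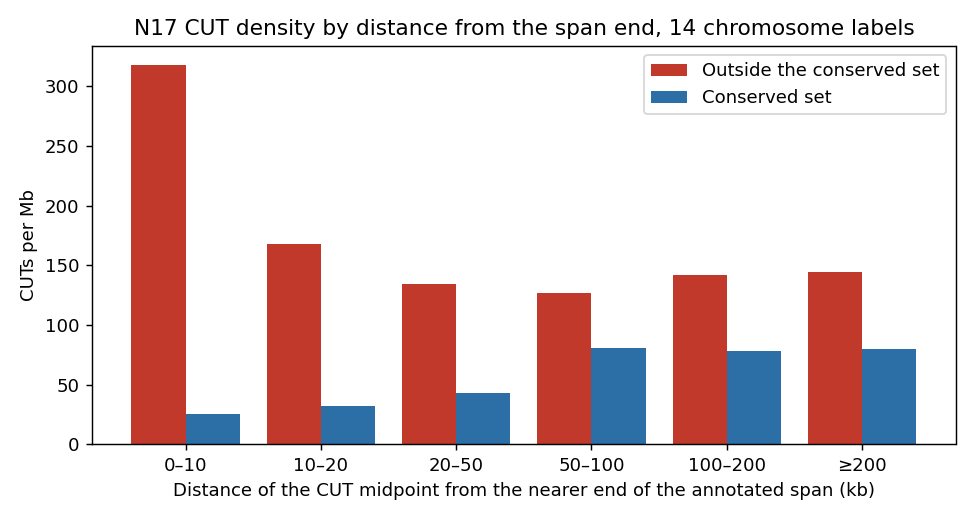
CUTs per Mb in N17 by the distance of the CUT midpoint from the nearer end of the annotated span, over 14 chromosome labels, outside the conserved set (red) and in it (blue). Outside the set the density is 317.9 per Mb within 10 kb and lies between 126.7 and 167.9 per Mb farther in, while conserved CUTs are at 25 per Mb within 10 kb and between 78.4 and 80.8 per Mb beyond 50 kb.

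The gap between a CUT outside the set and the nearest conserved CUT on either strand had a median of 5038 bp (quartiles 1797.5 and 11416 bp). From a conserved CUT to the next conserved CUT the median gap was 4076 bp (1466.5 and 8710.5 bp). On the same strand the medians were 10920 bp outside the set and 7911 bp in the conserved set, and on the opposite strand 9702 and 8690 bp. A gap of more than 10 kb was found for 401 CUTs outside the set (28.3%) and 138 conserved CUTs (19.4%). Part of this difference lay near the ends. When CUTs within 20 kb of a span end were left out, an alternative chosen after the data were seen, the median was 4462.5 bp for 1280 CUTs outside the set and 4102 bp for 695 conserved CUTs. The 5 CUTs farthest from any conserved CUT all lay at the right end of chromosome X, beyond CUT8137. The farthest, CUT7629 (positions 714266 to 714459, plus strand, 194 nt), was 84.4 kb away, with a coverage of 4.89 in rrp6Δ and 2.49 in WT. In Sigma1278b the medians were 5022 bp for CUTs outside the set and 3783 bp for conserved CUTs.

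**Figure D5:**
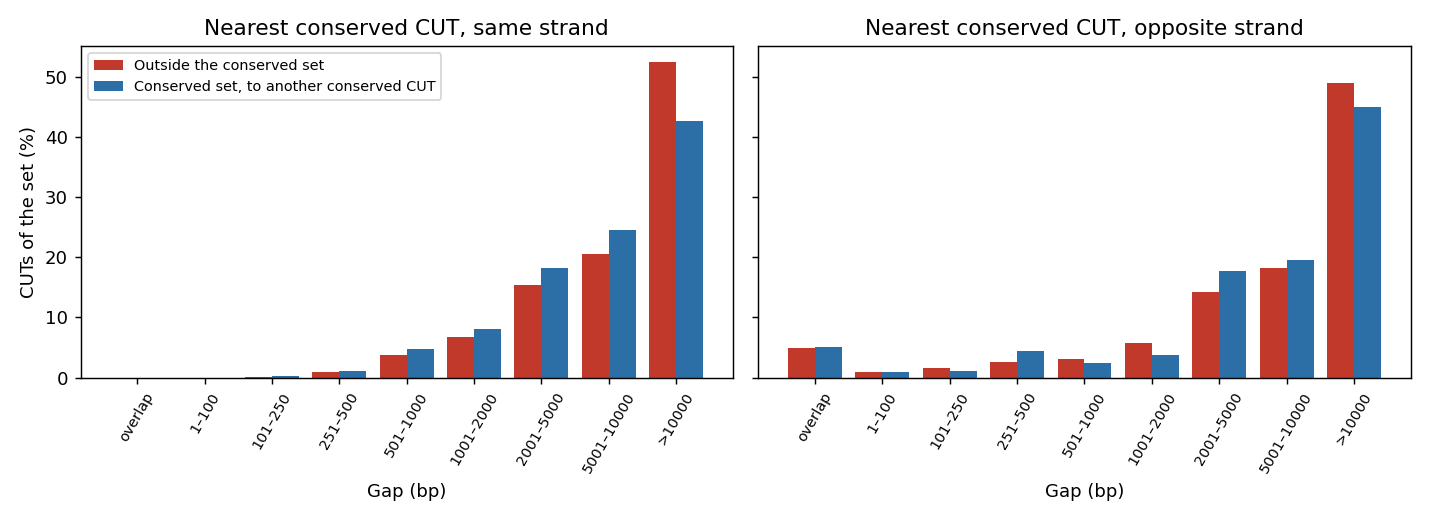
Percent of CUTs of each set by the gap in bp to the nearest conserved CUT on the same strand (left) and on the opposite strand (right), for CUTs outside the set (red) and for conserved CUTs to another conserved CUT (blue). No CUT of either set overlaps a conserved CUT on its own strand, 4.94% outside the set and 5.06% in the conserved set do so on the opposite strand, and gaps above 10000 bp are the most frequent class in both panels.

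Conserved neighbours within 250 bp lay almost always on the opposite strand. No CUT outside the set overlapped a conserved CUT on its own strand, and 1 lay within 250 bp of one. The authors joined CUTs of 1 strand within 450 bp, so that small gaps on the same strand were largely removed in advance. Beyond this distance the strands were more alike. The nearest conserved CUT of the same strand lay 500 to 1000 bp away for 53 CUTs outside the set. That of the opposite strand did so for 44. On the opposite strand, 70 CUTs outside the set (4.94%) overlapped a conserved CUT, close to the 36 conserved CUTs (5.06%) that overlapped another one, and 34 more lay within 250 bp. The CUTs nearest without overlap were highly covered. The 12 CUTs outside the set within 100 bp of a conserved CUT had a median coverage of 54.9 in rrp6Δ and 11.2 in WT. CUTs that pointed away from a conserved CUT of the other strand within 500 bp, a divergent pair, numbered 43 and had median coverages of 16.7 in rrp6Δ and 3.51 in WT. The 27 CUTs that pointed towards one, a convergent pair, had 4.88 in rrp6Δ and 1.30 in WT. In the conserved set, the 29 divergent CUTs had 9.14 in rrp6Δ and 1.12 in WT, and the 17 convergent CUTs had 10.7 in rrp6Δ and 0.560 in WT.

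Of the 70 CUTs outside the set that were antisense to a conserved CUT, 20 lay wholly within it and 6 covered it wholly. The median stretch shared was 283 bp, and 43 shared at least 50% of their length. The rrp6Δ coverage was above that of the conserved partner for 32 of the 70. The longest, CUT9041 on chromosome IV (positions 1471269 to 1473790, minus strand, 2522 nt), had a coverage of 43.9 in rrp6Δ and 2.60 in WT, against 16.8 in rrp6Δ and 0.395 in WT for the conserved CUT8745. CUT9234 on the same chromosome (positions 538366 to 540483, minus strand, 2118 nt) had 360.0 in rrp6Δ and 27.3 in WT, against 10.4 in rrp6Δ and 1.44 in WT for the conserved CUT8408. CUT8974 on chromosome XVI, CUT9037 on chromosome II and CUT8966 on chromosome VII had a WT coverage of 13.5, 25.9 and 19.9 and ratios of 2.32, 1.64 and 1.57.

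The kind of the nearest neighbour was close to that given by the numbers of CUTs. The nearest CUT of any kind was another one outside the set for 70.3% of CUTs outside the set and for 63.4% of conserved CUTs, where 66.6% of all these CUTs were outside the set. The median gap to it was 918.5 bp from a CUT outside the set and 1192 bp from a conserved CUT.

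Conserved CUTs, which the authors defined on their genome alignment, occur in the same order in the genomes of N17 and Sigma1278b. The stretch between a pair of neighbouring conserved CUTs can thus be compared between these strains without converting coordinates. There were 697 such intervals, with a median length of 8.59 kb in N17 and 8.80 kb in Sigma1278b. They held 1220 of the CUTs outside the set in N17 (86.2%) and 1157 in Sigma1278b. At least 1 N17 CUT outside the set lay in 435 intervals (62.4%). With each strand of an interval taken apart, 654 held an N17 CUT outside the set, and 441 of these (67.4%) also held a Sigma1278b CUT outside the set. Of the 740 with no such N17 CUT, 167 (22.6%) held one of Sigma1278b. Longer intervals held such CUTs more often in either strain, and both shares went up with length. They were 22.2% (2 of 9) against 1.16% (2 of 173) below 2 kb, 35.8% against 17.1% from 2 to 5 kb and 52.2% against 22.8% from 5 to 10 kb. From 10 to 20 kb they were 66.7% against 47.6%, and from 20 to 40 kb 82.8% against 68.8%. At 40 kb and above they were 98% (49 of 50) against 2 of 2. A total of 275 N17 CUTs outside the set (22.5%) lay on a strand of an interval where Sigma1278b had none. Lying in the same interval does not show that a pair of CUTs is the same transcript.

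N17 had more CUTs outside the set than Sigma1278b in 217 intervals and fewer in 193, and in 287 the counts were equal. The intervals named here were picked after their values were seen, as those with the largest differences in either direction. Between CUT8594 and CUT8640 on chromosome IV there were 32 CUTs outside the set in N17 and 10 in Sigma1278b, but the interval measured 159.0 kb in N17 and 91.6 kb in Sigma1278b. Between CUT8668 and CUT8140 on the same chromosome there were 4 in N17 and 22 in Sigma1278b, where it measured 44.1 kb in N17 and 108.9 kb in Sigma1278b. Among intervals whose lengths were within 10% of each other, the one between CUT7126 and CUT8922 on chromosome XV (21.6 kb in N17 and 21.2 kb in Sigma1278b) held 10 CUTs outside the set in N17, 7 of them on the minus strand, and 1 in Sigma1278b. The one between CUT8752 and CUT8152 on chromosome X (10.8 kb in N17 and 10.9 kb in Sigma1278b) held 0 in N17 and 6 in Sigma1278b.

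The 390 CUTs outside the set with the label chrXII differed from those of the other labels. Their median length was 569 nt, close to the 597 nt of the 144 conserved CUTs with that label. Their median coverage was 10.8 in rrp6Δ and 2.26 in WT, against 7.92 in rrp6Δ and 0.604 in WT for the conserved CUTs. The median ratio was 2.89 outside the set and 4.78 in the conserved set. A ratio of 2 was reached by 311 CUTs (79.7%), with a background of 84.5% over the 534 CUTs of the label, and a ratio of 10 by 26 (6.67%), with a background of 8.24%. WT coverage was 10 or more for 107 CUTs (27.4%), against the 9.04% of CUTs outside the set on the other labels. In Sigma1278b the 228 CUTs outside the set with the label chrXII had medians of 354 nt, 5.36 in rrp6Δ and 0.681 in WT.

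This difference was larger among CUTs with starts of 500 kb and above. The 239 CUTs outside the set there had a median length of 766 nt and a median coverage of 14.1 in rrp6Δ and 3.88 in WT, and 87 of them (36.4%) had a WT coverage of 10 or more. The 151 below 500 kb had a median of 428 nt, 6.57 in rrp6Δ and 1.38 in WT, with 20 (13.2%) at a WT coverage of 10 or more. The conserved CUTs on either side of this point had median WT coverages of 0.641 at 500 kb and above and 0.528 below. The boundary was chosen after the values were seen. Under this label 39 neighbouring CUTs overlapped on 1 strand, 18 of them pairs outside the set and 21 pairs with a conserved CUT, whereas no such overlap occurred under the other labels. Gaps to conserved CUTs are therefore not described for chrXII.

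The longest CUT with this label, CUT9257 (positions 660728 to 667241, minus strand, 6514 nt), had a coverage of 672.4 in rrp6Δ and 394.4 in WT. CUT9254 (positions 730233 to 734203, minus strand, 3971 nt) had 624.2 in rrp6Δ and 418.2 in WT. Both had a ratio below 2, as did CUT8936 (positions 736918 to 740061, plus strand, 3144 nt). The highest rrp6Δ coverage was that of CUT9280 (positions 163042 to 163344, minus strand, 303 nt), with 3410 in rrp6Δ and 54.8 in WT, a ratio of 61.1. CUT9262 (positions 672931 to 673229, minus strand) was of like length, 299 nt, and had 889.4 in rrp6Δ and 428.1 in WT, a ratio of 2.08. CUT9261, CUT9259 and CUT9247 reached ratios of 34.2, 63.9 and 55.4. High coverage under this label thus came with both low and high ratios, and of the 51 CUTs with an rrp6Δ coverage of 100 or more, 11 reached a ratio of 10. On the other labels 47 of 63 did.

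CUT names follow rising rrp6Δ coverage, apart from 95 CUTs at the end of the annotation that do not. Of these, 20 (21.1%) were outside the set. The others were conserved, 14 with the label chrXII and 61 with other labels. The authors edited some CUTs by hand and brought back some filtered calls into the conserved set. Whether the 95 CUTs are these was not tested. The rrp6Δ coverage of the 20 CUTs outside the set ran between 0.921 and 24.3. Of the 20, 7 lay below 1.85, the lowest value of the ordered CUTs outside the set. Among the 95 CUTs, 4 pairs on 1 strand lay 155 to 338 bp apart, within the 450 bp at which the authors joined CUTs. They were CUT9292 with CUT9293 and CUT9295 with CUT9296 on chromosome X, and CUT9308 with CUT9309 and CUT9310 with CUT9311 on chromosome XVI.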

How the data were processed

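Poly(A) RNA of N17 was sequenced in 2 rrp6Δ and 2 WT libraries (replicates 3 and 4 in the labels). The authors mapped reads with Bowtie 0.12.7, allowing 2 mismatches, used bedtools 2.16.2, left out rRNA, called CUTs with a hidden Markov model, filtered known transcripts and joined calls within 450 bp. Calls of low average rrp6Δ coverage and calls below 100 nt were then removed, and some removed calls were brought back into the conserved set. The deposited coverage values are signal, scaled by the authors to mapped reads, corrected and averaged over replicates, so that their error is unknown. The authors' fold change column was not used. Mapped reads per library came from the study's list of libraries.

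Length was the deposited stop minus the deposited start, which made coverage times length whole at 6 decimals for 51.0% of N17 CUTs, against 10.1% with 1 nt added. Ratios had a pseudocount of 1. Named CUTs were the 5 most extreme by length, coverage, ratio, distance and antisense overlap, and 3 for chrXII, with neighbouring conserved CUTs. The members and lists were chosen with earlier results of these data known. Conserved CUTs of Sigma1278b were taken from the list headed S288c in the study's supplement, which holds Sigma1278b coordinates, since its Sigma1278b list lacks some chromosome names, and were paired with those of N17 by their place in the conserved lists (855 of 855 pairs had the same chromosome label). Computation was done in Python 3.11.15 with pandas 2.3.3 and NumPy 2.4.6, intervals came from SciPy 1.17.1, and plots from matplotlib 3.10.9. The gap routine was tested on simulated data. Alternatives are given in the closing section. The authors' processing notes name sacCer3 for all samples, while the methods name the genome of each strain.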

Additional observations from a re-analysis of the deposited data

How the results depend on the processing

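Length, coverage, ratio and nearness were recomputed as ratios of medians (outside over conserved), density as CUTs per Mb and the intervals as a percent, with 51 alternatives in all. In 12 of these, matching to the conserved list by overlap or name gave the values reported, so that they could move nothing. Of the other 39, 33 stayed within the 95% interval of the value reported (for density, within 1.5 times) and none reversed a direction. This interval is over CUTs, not replicates. Median length was 0.778 of that of conserved CUTs and 0.728 after joining CUTs within 1000 bp. Median WT coverage was 1.55 times that of conserved CUTs, 1.77 times with the label chrXII included and 2.03 times without the 25% of CUTs with the lowest rrp6Δ coverage. The coverage ratio depended on the pseudocount, with 0.734 at 1, 0.594 at 0.1 and 0.903 at 10. The share of interval strands with CUTs of both strains was 67.4% and became 62.3% with a minimum length of 200 nt. For nearness, the ratio was 1.17 with the label chrXII included, where gaps may join positions of different chromosomes, and the value reported, 1.24, became 1.09 without CUTs within 20 kb of a span end. This alternative and the one without CUTs of rrp6Δ coverage 100 or more were added after seeing the data. No paired analysis was possible because the deposited values are averages over both replicates, and leaving out each replicate was not run for the same reason. Depth limits the CUTs of low coverage most, and a WT coverage listed at 0 does not show that a transcript was absent. For a small number of CUTs called in all strains but 1, RT-qPCR in the paper did not bear out their absence from that strain. The paper proposes that its calls may have an appreciable rate of missed CUTs, probably those of low abundance. Some CUTs outside the set may therefore have uncalled counterparts in the other strains. Their number, and its bearing on the differences in length, coverage and ratio, was not tested.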
